A study of Mus musculus with 6 samples.

Results

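Genes that serve heat production without uncoupling protein 1 were followed in the inguinal white adipose tissue (iWAT) of mice without the zinc transporter ZIP13. The rule names 10 genes by their roles and uses no measured value, although they were listed with earlier results of these data known: creatine cycling (Ckb, Ckmt1, Ckmt2, Gatm, Gamt, Slc6a8 and Alpl), calcium cycling (Atp2a2 and Ryr2) and the making of N-acyl amino acids (Pm20d1). Every probe whose RefSeq transcript belongs to one of them was used. That gave 13 probes for the 10 genes, out of 28331 probes for 21368 named genes on the array, and 8 of the 10 genes passed the filter on dim probes and were tested among 15302 genes.

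Total RNA from iWAT of wild-type (WT) and Zip13-KO mice was measured on 6 Agilent arrays with 1 dye, 3 for each genotype. WT and Zip13-KO mice were 10-week-old littermates on a C57BL/6J background, and all ate powdered food because knockout animals have missing teeth (hypodontia). In the Zip13-KO mice a Neo-cassette took the place of exons 6 to 8 of Zip13 (Slc39a13) in every tissue, so that no effect can be assigned to fat cells alone. No further treatment was given, and neither the sex of the mice nor whether they ate standard or 60% fat food is stated. Nothing states that each array held a separate animal, so the p-values measure the spread between these 6 samples.

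A brown or beige fat cell warms the body mainly by letting protons leak through uncoupling protein 1 (UCP1), but it can also spend ATP in cycles that do no net work. In the creatine cycle, creatine kinases charge creatine to phosphocreatine and a phosphatase frees it again. In the calcium cycle, the pump SERCA2 drives calcium into the endoplasmic reticulum and the ryanodine receptor lets it out. N-acyl amino acids, which the secreted enzyme PM20D1 makes from fatty acids and amino acids, uncouple mitochondria directly.

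Zip13-KO and WT arrays were set apart by the targeted gene. Slc39a13 lay between 10.72 and 11.29 in WT and between 6.47 and 6.76 in Zip13-KO, in log2 units of normalized intensity, a difference of -4.33 (SE 0.17, adjusted p = 0.00128). Ucp1 itself rose by 5.16 (SE 0.82, adjusted p = 0.00881), and all 7 of the thermogenic adipocyte genes listed as markers were called higher, with a summed level of 15.06 to 15.77 in WT and 17.19 to 17.81 in Zip13-KO. Between 58.8% and 63.2% of spots were well above background on each array, with the lower shares, 58.8% to 60.4%, on the Zip13-KO arrays.

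Of the 8 tested members, 2 were called higher in Zip13-KO (Pm20d1 and Alpl), 1 was called lower (Ckb) and 5 were not called. A gene was called when its adjusted p was under 0.05 and its change over 0.58 on the log2 scale, about 1.5-fold. Among all 15302 genes 18.7% were called, 10.3% higher and 8.38% lower. The median log2 fold change of the 8 members was 0.17, beside -0.00051 for all genes tested, and the median size of the change without its sign was 0.359 beside 0.285. The changes ran both ways, with 5 values above 0 and 3 below. The genotypes did not overlap for 6 of the 8, as for 55.1% of all genes tested: Zip13-KO lay wholly above WT for 3 (Pm20d1, Alpl and Atp2a2; 29.2% of all genes) and wholly below for 3 (Ckb, Gatm and Slc6a8; 25.9% of all genes). Of the 11 tested probes of the members, 3 were called when every probe was fitted on its own, against 18.3% of all probes.

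**Figure D1:**
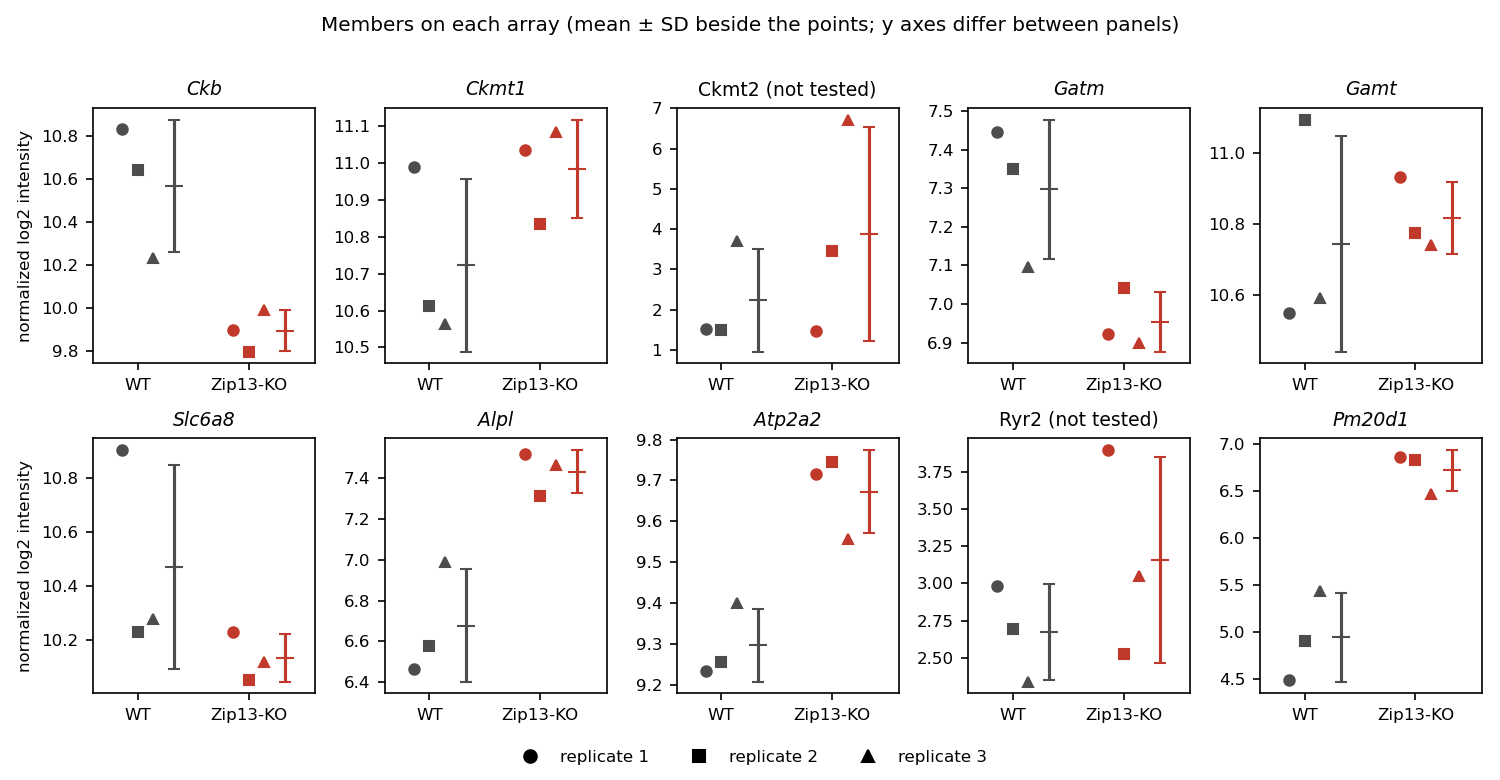
Normalized log2 intensity of the 10 members on each array, 1 panel a gene with its own y axis, WT in grey and Zip13-KO in red; marker shapes give the replicate number and bars the mean ± SD of 3 arrays. Pm20d1 and Alpl lie higher in all 3 Zip13-KO arrays and Ckb lower, whereas Ckmt1 and Gamt overlap; Ckmt2 and Ryr2 were too dim to be tested.

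Pm20d1 (NM_178079), the enzyme that joins fatty acids to amino acids outside the cell, had the largest change of the members. Its normalized log2 intensity was 4.49, 4.91 and 5.44 in WT and 6.86, 6.83 and 6.47 in Zip13-KO. All 3 Zip13-KO arrays lay above all 3 WT arrays, with 1.03 between the nearest of them. The mean rose from 4.95 ± 0.47 to 6.72 ± 0.22 (SD, n = 3), by 1.78 on the log2 scale (SE 0.25, 95% interval 1.16 to 2.39, limma adjusted p = 0.00717), or 3.43-fold (2.24 to 5.24), which ranked 70 among the 15302 genes. The WT spots were dim but well above background on all 3 arrays, with processed signals of 23.7, 32.8 and 46.7 against 107, 105 and 82.4 in Zip13-KO; the local background on the 6 arrays was between 28 and 37. The size of the change depends on how background is treated: it was 1.11 in the deposited table (adjusted p = 0.00377) and 0.87 with the normexp correction, and it was called in both. Zip13-KO replicate 1, the only knockout array in the slide column that held the WT arrays, lay 1.92 above the WT mean and the others 1.71 above it; with the column as a block the call was lost (adjusted p = 0.0665).

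The genes whose 6 values ran closest to those of Pm20d1, once each gene was centred on its mean, were Mpzl2, Rasl12 and Gnao1, with root mean square differences of 0.0549, 0.0589 and 0.0669 over 6 arrays. For comparison with cells that could carry Pm20d1, the summed level of 10 adipocyte markers was taken. It was 19.18 to 19.54 in WT and 19.76 to 19.81 in Zip13-KO, and 3 of the 10 were called higher, beside 10.3% of all genes. The brightest markers weigh most in this sum, and the single changes ran from 0.03 (Cfd, the brightest) to 1.08 (Slc2a4). Quantile normalization gives the top ranks of every array the same set of values. Cfd lay near that ceiling, with 17.4919 in both WT replicate 2 and Zip13-KO replicate 1, so its change could hardly be large. The sum differed by 0.379 between the genotypes, and by 0.521 when arrays were scaled to the 75th percentile instead. The sum of the 7 thermogenic adipocyte genes was 15.06, 15.18 and 15.77 in WT and 17.19, 17.81 and 17.46 in Zip13-KO, a difference of 2.15. Its order was that of Pm20d1 over the WT arrays but not over the Zip13-KO arrays. The part of these shifts in the rise of Pm20d1 was not tested. In whole tissue, a change in the number of cells of a type and a change in RNA per cell cannot be told apart.

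Alpl (NM_007431) encodes tissue-nonspecific alkaline phosphatase, the enzyme that splits phosphocreatine in the creatine cycle, and Ckb (NM_021273) the brain-type creatine kinase that charges it. They moved in opposite directions. Their promoter windows are shown because these were the called members for which RefSeq's promoter table (assembly GRCm38.p6) held a sequence. Each run is the 250 bases before an annotated start of the gene on the minus strand, written 5′ to 3′ along that strand, for Ckb at chr12:111672339-111672588 and for the 2 starts of Alpl at chr4:137766476-137766725 and chr4:137796385-137796634. Capitals mark matches, on either strand, to the nuclear receptor hexamer AGGTCA, the TATA box TATAAA, the CCAAT box CCAAT or the cAMP response element core TGACG.
Ckb: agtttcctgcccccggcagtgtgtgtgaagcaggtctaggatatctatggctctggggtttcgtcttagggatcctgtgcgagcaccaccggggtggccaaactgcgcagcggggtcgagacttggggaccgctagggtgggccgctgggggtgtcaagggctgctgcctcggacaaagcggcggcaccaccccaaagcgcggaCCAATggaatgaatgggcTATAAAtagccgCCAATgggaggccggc
Alpl, start at the lower coordinate: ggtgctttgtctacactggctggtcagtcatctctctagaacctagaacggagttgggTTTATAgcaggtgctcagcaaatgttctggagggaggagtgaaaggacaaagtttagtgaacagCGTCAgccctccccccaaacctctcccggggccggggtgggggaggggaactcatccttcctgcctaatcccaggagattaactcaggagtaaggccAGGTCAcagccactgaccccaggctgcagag
Alpl, start at the higher coordinate: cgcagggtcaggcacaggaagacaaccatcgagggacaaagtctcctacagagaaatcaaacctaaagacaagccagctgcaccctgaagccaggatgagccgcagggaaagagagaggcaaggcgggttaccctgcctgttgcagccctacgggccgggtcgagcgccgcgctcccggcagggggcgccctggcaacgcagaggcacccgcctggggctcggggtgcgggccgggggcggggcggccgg

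The Ckb window had a TATA box beginning 28 bases before the start and CCAAT boxes beginning 46 and 16 bases before it. At the lower-coordinate start of Alpl, AGGTCA began 31 bases before the start, a TGACG on the opposite strand lay at 128 and a TATAAA on the opposite strand at 192, whereas the other Alpl window held none of the 4 motifs. Such matches are common: of 32851 promoter windows of the same length, 33.8% held CCAAT, 17.8% TGACG, 14% AGGTCA and 12.4% TATAAA. The arrays do not tell which start of Alpl was used.

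Alpl had normalized log2 intensities of 6.46, 6.58 and 6.99 in WT and 7.52, 7.31 and 7.47 in Zip13-KO. Every Zip13-KO array was above every WT array, by at least 0.32. The mean rose from 6.68 ± 0.28 to 7.43 ± 0.11 (SD, n = 3), by 0.76 on the log2 scale (SE 0.15, 95% interval 0.39 to 1.13, adjusted p = 0.0149), or 1.69-fold (1.31 to 2.18). The 3 genes nearest to it over the 6 arrays were Mamdc2, Nrn1 and Kank3 (root mean square differences 0.0481, 0.0535 and 0.0541). Endothelial cells also carry alkaline phosphatase. The summed level of 8 endothelial markers was 13.33 to 13.42 in WT and 13.89 to 13.94 in Zip13-KO. Of the 8, 2 were called higher, beside 10.3% of all genes. The single changes ran from 0.13 (Kdr) to 0.83 (Robo4), and the genotypes overlapped for Pecam1 and Kdr. The part of endothelial cells in the rise of Alpl was not tested. The change in Alpl lies near the fold threshold: in the deposited table it was 0.55 (adjusted p = 0.0144), below the threshold, and without Zip13-KO replicate 1 it was 0.71 with an adjusted p of 0.0589. Within the slide column shared by both genotypes the difference was 0.84, but with the column as a block it was not called (adjusted p = 0.0931).

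Ckb was measured by 2 probes, and both were lower in Zip13-KO. The brighter probe read 10.83, 10.64 and 10.23 in WT and 9.90, 9.80 and 9.99 in Zip13-KO. The dimmer one read 10.21, 10.19 and 9.87 in WT and 9.51, 9.41 and 9.69 in Zip13-KO. On neither probe did the genotypes overlap. The brighter probe fell from 10.57 ± 0.31 to 9.89 ± 0.10 (SD, n = 3), a difference of -0.67 (SE 0.16, 95% interval -1.07 to -0.28, adjusted p = 0.0251), or 1.59-fold lower (1.21 to 2.1). The dimmer probe differed by -0.56 (SE 0.13, adjusted p over all probes = 0.0225), short of the fold threshold. Tor3a, Adam19 and Jpt2 were the genes nearest to Ckb over the 6 arrays (root mean square differences 0.0434, 0.044 and 0.046).

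The call on Ckb is the least settled of the 3. Leaving out WT replicate 1 gave -0.54 (adjusted p = 0.0437), and leaving out WT replicate 2 gave -0.64 (0.0677). Leaving out Zip13-KO replicate 1, 2 or 3 gave -0.67, -0.62 and -0.72 (adjusted p = 0.0790, 0.0839 and 0.0566), so that the call was kept only without WT replicate 3 (-0.84, adjusted p = 0.0109). The direction was the same in every one of these fits. WT replicate 1, the highest array for Ckb, was also the highest in the summed level of 9 macrophage markers. That sum was 16.75 beside 16.22 and 16.10 in the other WT arrays and 15.10 to 15.39 in Zip13-KO. Of the 9, 6 were called lower, beside 8.38% of all genes. WT replicate 1 was likewise the highest in the sum of 8 stromal progenitor and fibroblast markers, of which 2 were called lower. Its value there was 18.89 beside 18.25 and 17.75 in WT and 17.58 to 17.84 in Zip13-KO. Among the WT arrays it also had the highest sum of the 6 tested mammary epithelium markers, 9.906 beside 8.343 and 8.002. In Zip13-KO that sum was 7.692 to 9.729. Its adipocyte sum was the lowest, 19.18 beside 19.54 and 19.49 in WT. What any of these cells contributed to the level of Ckb was not tested.

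**Figure D2:**
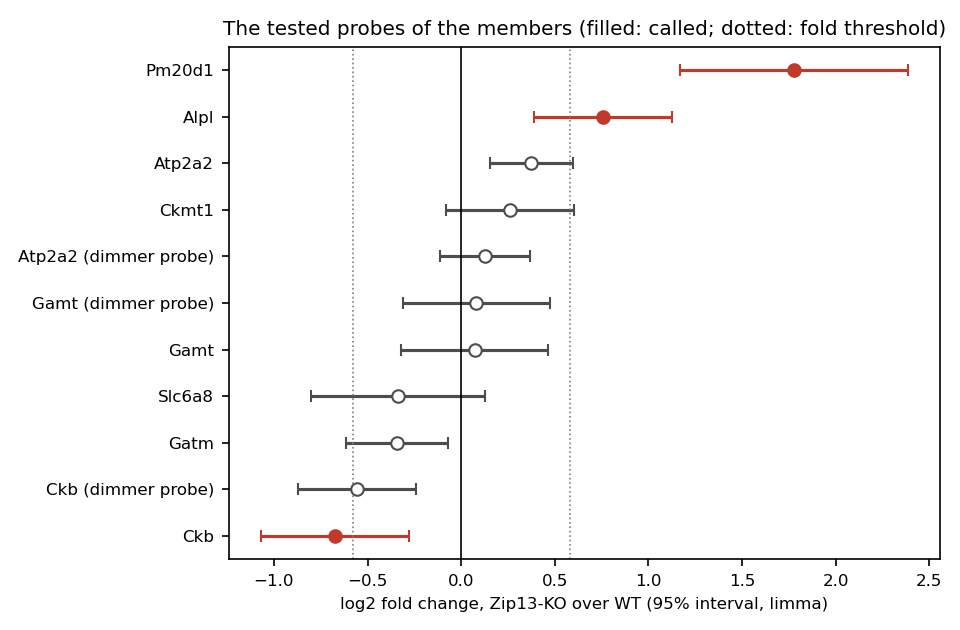
Log2 fold change of the 11 tested probes of the members, Zip13-KO over WT, with the 95% interval of limma; filled red points passed both thresholds and dotted lines mark the fold threshold of 0.58. The intervals of Pm20d1 and Alpl lie above 0 and those of both Ckb probes below it, while those of Ckmt1, Gamt and Slc6a8 span 0.

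The other genes of the creatine cycle showed no called change. Ckmt1 (NM_009897), the mitochondrial creatine kinase found in most tissues, read 10.99, 10.61 and 10.56 in WT and 11.04, 10.83 and 11.08 in Zip13-KO. The groups overlapped, because WT replicate 1 was higher than Zip13-KO replicate 2, and the difference was 0.26 (SE 0.14, 95% interval -0.08 to 0.60, adjusted p = 0.187).

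Gatm (NM_025961) and Gamt (NM_010255) encode the enzymes that make creatine, from arginine and glycine to guanidinoacetate and from there to creatine. Gatm read 7.45, 7.35 and 7.10 in WT and 6.92, 7.04 and 6.90 in Zip13-KO. The genotypes were separated by only 0.054, and the difference of -0.34 (SE 0.11, 95% interval -0.61 to -0.07) missed the threshold with an adjusted p of 0.0574. Gamt read 10.55, 11.09 and 10.59 in WT and 10.93, 10.77 and 10.74 in Zip13-KO on its brighter probe. One WT array was the highest of all and the other two the lowest, and the difference was 0.07 (95% interval -0.32 to 0.47, adjusted p = 0.753), with 0.08 on its second probe.

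Slc6a8 (NM_133987), the transporter that brings creatine into cells, read 10.90, 10.23 and 10.28 in WT and 10.23, 10.05 and 10.12 in Zip13-KO. The highest Zip13-KO array lay 0.0015 under the lowest WT array, so that the groups touch. The difference was -0.34 (SE 0.19, 95% interval -0.80 to 0.13, adjusted p = 0.210), and most of it came from WT replicate 1: without that array it was -0.12. This is again the WT array with the highest macrophage, stromal and mammary epithelium sums and the lowest adipocyte sum. What any of these cells contributed to the level of Slc6a8 was not tested.

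Ckmt2 (NM_198415), the mitochondrial creatine kinase of striated muscle, stood apart from the other members. Its probe was well above background on only 2 of 6 arrays, WT replicate 3 and Zip13-KO replicate 3. The processed signals were 2.66, 2.5 and 14 in WT and 2.65, 10.6 and 97.5 in Zip13-KO, or 1.51, 1.48 and 3.69 and 1.46, 3.46 and 6.72 in normalized log2 intensity. A single Zip13-KO array thus carried a clear signal, while Zip13-KO replicate 1 lay at the level of the dimmest WT arrays. The gene was not tested; fitted without the filter on dim probes, the difference was 1.66 with an SE of 1.49 (adjusted p = 0.482).

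Within each genotype, the array with the highest Ckmt2 signal was also the one with the most signal from skeletal muscle genes. Of 19 listed muscle markers, 17 passed the filter (all but Myh1 and Casq1). The summed level of these 17 was 13.18, 13.33 and 13.73 in WT and 13.72, 13.99 and 14.54 in Zip13-KO. It was highest in Zip13-KO replicate 3 and, within WT, in replicate 3, although Zip13-KO replicate 2, where Ckmt2 was not well above background, had a higher sum than WT replicate 3. Ckm, the cytosolic creatine kinase of muscle, reached 7.99 in Zip13-KO replicate 3 against 5.51 and 6.25 in the other Zip13-KO arrays and 3.99 to 6.38 in WT. Only Myl1 of the 17 was called higher between the genotypes, beside 10.3% of all genes. It was the brightest of them on every array and so weighs most in the sum. Myl1 read 11.33, 12.27 and 12.26 in WT and 12.92, 12.96 and 13.01 in Zip13-KO. The order of Zip13-KO replicate 2 and WT replicate 3 in the sum thus leans on this gene, and no sum was taken without it. Whether muscle in the sample accounts for the signal of Ckmt2 was not tested.

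**Figure D3:**
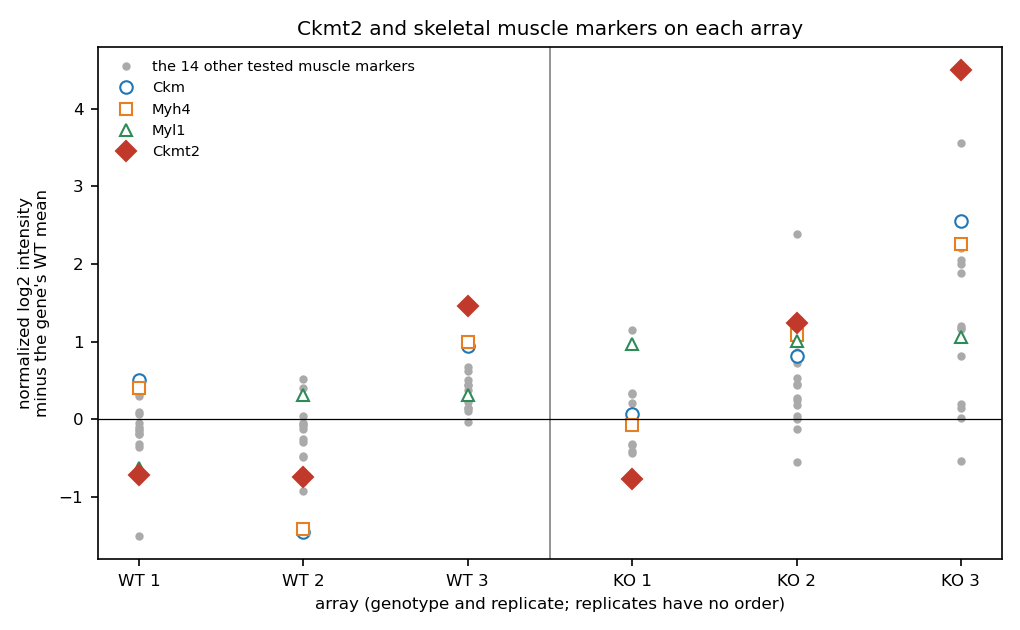
Normalized log2 intensity on each array minus the gene's own WT mean, for Ckmt2 (red diamonds) and the 17 tested skeletal muscle markers, of which Ckm, Myh4 and Myl1 are named. Ckmt2 is highest on Zip13-KO replicate 3, as are Ckm and Myh4, and on Zip13-KO replicate 1 lies at the level of WT replicates 1 and 2.

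Atp2a2 (NM_009722) encodes SERCA2, the pump that returns calcium to the endoplasmic reticulum, and had 2 probes that differed in outcome. The brighter probe read 9.24, 9.26 and 9.40 in WT and 9.72, 9.75 and 9.56 in Zip13-KO. All Zip13-KO arrays lay above all WT arrays, and the difference was 0.38 (SE 0.09, 95% interval 0.16 to 0.59, adjusted p = 0.0241), or 1.3-fold, which is under the fold threshold. An adjusted p under 0.05 at any fold was found for 4 of the 8 tested members (Pm20d1, Alpl, Ckb and Atp2a2) and for 34.5% of all genes. The dimmer probe read 7.24, 7.48 and 7.20 in WT and 7.39, 7.44 and 7.47 in Zip13-KO. Here the genotypes overlapped, and the difference was 0.13 (SE 0.10, adjusted p over all probes = 0.344). Both probes match the same listed transcript, and no reason for their different values was looked for.

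Ryr2 (NM_023868), the ryanodine receptor known best from heart muscle, was not well above background on any array. Its processed signals ran from 5.56 to 13.4, and its normalized log2 intensities were 2.98, 2.69 and 2.34 in WT and 3.90, 2.53 and 3.05 in Zip13-KO. The values overlapped and say nothing of a change in Ryr2 at this brightness; without the filter the difference was 0.49 (SE 0.39, adjusted p = 0.432).

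The genes around these cycles were read from 5 lists of related genes. The lists named 72 genes, of which 70 had a probe and 59 were tested, and 16 were called higher, 4 lower and 39 neither. Higher calls made up 16 of the 59, where 10.3% of all genes tested were called higher, 8.38% lower and 18.7% either way. Of these 16, 7 came from the 9 tested genes of the list on the glycerol phosphate shuttle and lipid cycling. The lists were chosen with earlier results of these data known. Without Zip13-KO replicate 1, 2 or 3 the higher calls were 7, 8 and 9 and the lower calls 2, 2 and 5. Without WT replicate 1, 2 or 3 the higher calls were 13, 17 and 13 and the lower calls 5, 3 and 5.

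Of 16 genes that supply creatine or work beside it, 3 were called higher and 1 lower, or 25% beside 18.7% of all genes, with 12 values above 0 and a median of 0.30. Phospho1, a phosphatase of phosphocholine, rose by 1.01 (SE 0.20, adjusted p = 0.0144). Vdac1, a channel of the outer mitochondrial membrane, rose by 0.60 (adjusted p = 0.00856). Slc7a1, which carries arginine into cells, fell by 0.69 (SE 0.12, adjusted p = 0.01). The largest value, 1.15 for Ckm, was not called (adjusted p = 0.320) and was highest on Zip13-KO replicate 3, as Ckmt2 was.

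The list of reticulum calcium pumps, channels and regulators had 29 genes, of which 27 had a probe and 20 were tested. Only 3 were called higher and 1 lower, or 20%, close to the 18.7% of all genes, and the median was -0.07 with 8 values above 0. Srl, or sarcalumenin, which binds calcium inside the reticulum of muscle, rose by 1.59 (SE 0.27, adjusted p = 0.0101); the part of the muscle signal given with Ckmt2 in this value was not tested. Of the alpha-1 adrenergic receptors, which act through calcium release, Adra1a and Adra1d rose by 1.26 (adjusted p = 0.0489) and 0.68 (adjusted p = 0.0182). Adra1b, the other receptor of this kind on the list, was not called (-0.016, adjusted p = 0.909). Fkbp1b, a protein that binds to ryanodine receptors, fell by 0.99 (SE 0.23, adjusted p = 0.0226). The SERCA inhibitors Pln and Sln were not tested: Pln was well above background on 1 Zip13-KO array and Sln on none.

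Among 8 genes of mitochondrial calcium transport 1 was called higher and 1 lower, or 25% beside 18.7% of all genes, and the median was -0.12. Letm1, an exchanger of the inner membrane, rose by 0.84 (SE 0.18, adjusted p = 0.0182). Mcub, the subunit that dampens the calcium uniporter, fell by 1.40 (SE 0.29, adjusted p = 0.0158), and the other 6 genes were not called.

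Pm20d1 belongs to the M20 peptidases, and 6 of the 10 listed relatives and enzymes of N-acyl amino acids were tested. Of these 6, 2 were called higher and 1 lower, or 50% beside 18.7% of all genes. Aspa, which cleaves N-acetylaspartate, rose by 1.01 (SE 0.26, adjusted p = 0.0285) and Acy3, an aminoacylase, by 0.66 (SE 0.10, adjusted p = 0.00822). Cndp2, a dipeptidase of the M20 family, fell by 0.90 (SE 0.12, adjusted p = 0.0067), opposite to Pm20d1. The median of the 6 was 0.29. Cndp1, Glyat, Glyatl3 and Baat were well above background on no array.

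The fifth list held genes of the glycerol phosphate shuttle and of lipid breakdown and resynthesis, another route by which ATP or electrons are spent in thermogenic fat. All 9 were tested, 7 were called higher and none lower, or 77.8% beside 18.7% of all genes (10.3% higher), and the median was 1.04. Gpd2 and Gpd1, the mitochondrial and cytosolic glycerol phosphate dehydrogenases, rose by 1.57 (SE 0.23, adjusted p = 0.00741) and 1.26 (SE 0.30, adjusted p = 0.0243). Glycerol kinase, Gk, rose by 1.39 (adjusted p = 0.0182) and the glycerol channel Aqp7 by 1.17 (adjusted p = 0.00933). Dgat1, which makes triglyceride, rose by 0.99, and the lipases Mgll and Lipe by 0.94 and 0.77 (adjusted p = 0.00982, 0.0334 and 0.0413). Of the 4 probes of Mgll 3 were called, and the lowest value was 0.41. Pnpla2, the first lipase of triglyceride breakdown, had the smallest value, 0.50 (adjusted p = 0.0170), under the fold threshold. Adipocyte markers as a sum were also higher in these arrays, as given with Pm20d1, and their part in these values was not tested.

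**Figure D4:**
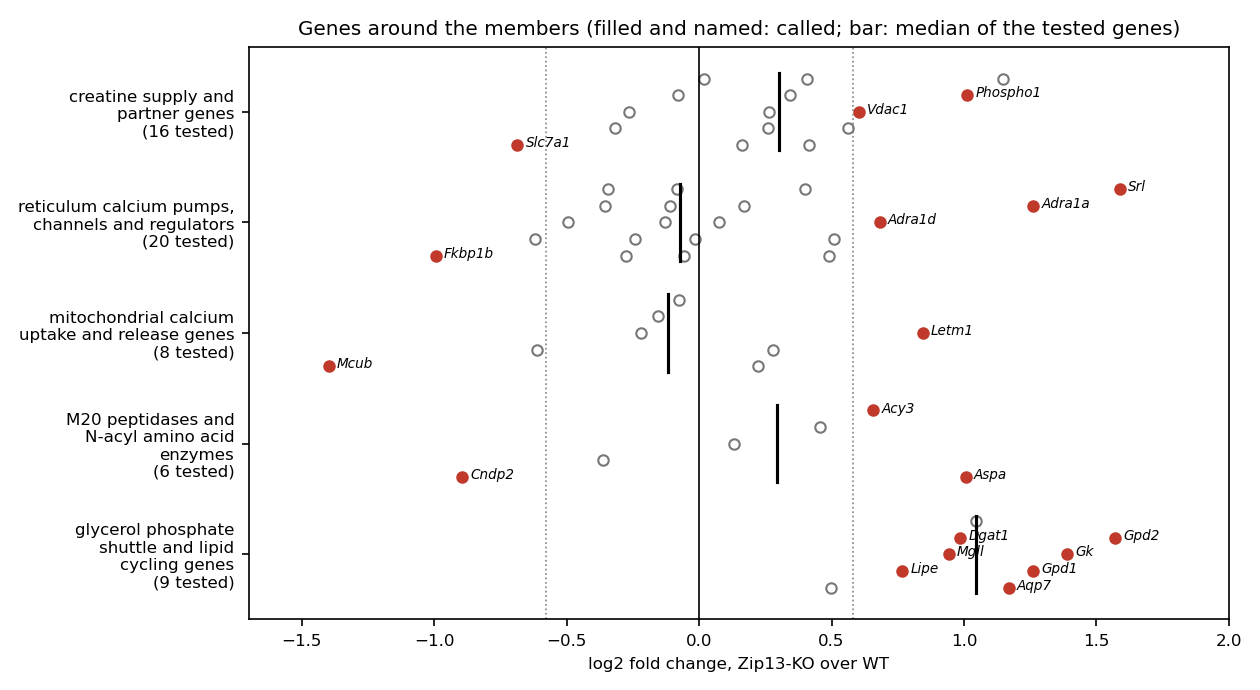
Log2 fold change, Zip13-KO over WT, of the tested genes in 5 lists around the members, without 1 gene that is not reported here; filled and named points were called, open points were not, black bars are medians over all tested genes of a list and dotted lines the fold threshold of 0.58. In the glycerol phosphate and lipid list all 9 values lie above 0, while the calcium lists spread to both sides of it.

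Over 22 alternative ways of processing the arrays, the called members differed in how often they stayed called. Pm20d1 ranged from 0.87 to 2.02 and was called in 21 of the 22. Alpl ranged from 0.49 to 0.91 and was called in 15, and Ckb ranged from -0.84 to -0.54 and was called in 13. Ckmt1, Gatm and Slc6a8 were called in none, and Atp2a2 only where no fold threshold was set. The sign of each of these 7 genes was the same throughout, whereas Gamt went slightly below 0 without WT replicate 1 or 3.

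**Figure D5:**
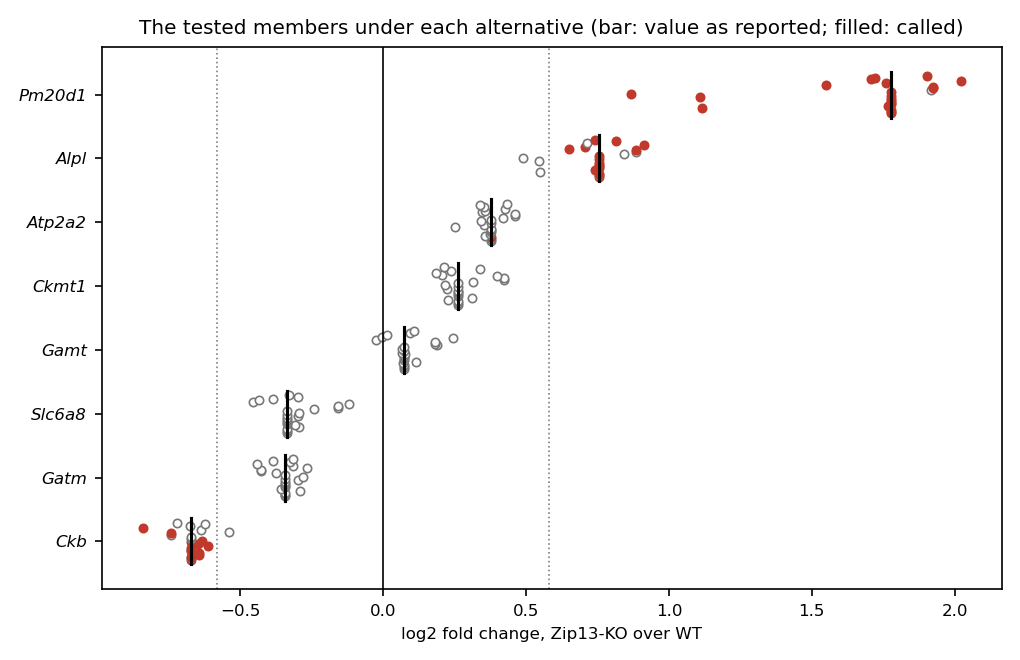
Log2 fold change of the 8 tested members under each of 22 alternatives (points; filled red where called) beside the value as reported (black bar); dotted lines mark the fold threshold of 0.58. Points of Pm20d1 lie between 0.87 and 2.02, those of Alpl and Ckb lie around the threshold, and those of Gamt lie around 0.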

How the data were processed

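Deposited files were the scanner output of 6 arrays (Agilent SurePrint G3 Mouse GE 8x60K, Feature Extraction 11.5.1.1, design annotated on mm9) and 1 table of normalized values. Per the file headers, the processed signal is an intensity from which background and spatial trend were removed on each array, with no scaling between arrays; flags mark each spot as well above background, saturated or an outlier. The deposited table holds the authors' quantile-normalized log2 values, which rank the probes exactly as the median signal without background correction does.

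Here log2 of the processed signal, without control and outlier spots, was averaged over the spots of a probe and quantile normalized (R 4.3.3, limma 3.58.1). A probe was kept where, in WT, in Zip13-KO or in both, its 3 arrays were all flagged well above background: 20313 of the 28331 with a gene name, and the kept probe with the highest mean stood for its gene. Probes were given to members by the RefSeq accession in the files. Differences were tested with limma (lmFit, eBayes) over 15302 genes, two-sided, with Benjamini-Hochberg adjustment over all of them, and called at an adjusted p under 0.05 and a log2 change over 0.58, the fold threshold of the study's methods. The study joined a t-test and a test of the ratio of medians into 1 p-value; that combination was not rebuilt here, and the alternative called the methods' t-test uses the t-test part with the ratio of medians only as a fold threshold. Probes tested on their own were adjusted over the 20313 probes. With 3 arrays against 3, the smallest two-sided exact permutation p is 0.1, so no single-gene permutation test can pass. A simulation of 15300 genes used each gene's spread as independent noise and changed 200 of them. There limma found 70% of the genes given a log2 change of 1 and 96% of those given 2. It called 8 unchanged genes. In the data far more genes differed, 34.5% at an adjusted p under 0.05. The simulated shares therefore do not give the power or error rate of the comparison here.

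The members and all gene lists were chosen with earlier results of these data known. The text names all members, Slc39a13 and Ucp1, and the 3 nearest genes to each of Pm20d1, Alpl and Ckb. It also names the called genes of each related list with its highest and lowest value. Pln, Sln, Adra1b, Myl1, Myh4, Cfd, Slc2a4, Pecam1, Kdr, Robo4, Csf3r and the genes said to be too dim were named after their values were seen. One called gene of the creatine list is counted but not reported here. Summed marker levels are log2 of the summed normalized signals. Levels are not compared between probes, whose brightness per molecule differs. All arrays were on 1 slide with 1 scan time; the WT arrays and Zip13-KO replicate 1 shared a slide column. Same-numbered WT and Zip13-KO arrays did not deviate together (correlations of deviations -0.0209, 0.038 and -0.0798), so numbers were not treated as pairs. No spot was saturated. Alternatives covered background, scaling, filter, probe choice, test, threshold, blocks and leaving out each array; the files hold median and not mean spot signals, so normexp (offset 50) used the median, and the Gaussian mixture filter (mclust 6.1.1) approximates that of the study.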

Additional observations from a re-analysis of the deposited data

How the results depend on the processing

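Of the members, 2 were called higher and 1 lower. The higher count was 1 with normexp, without background correction, in the deposited table, by the methods' t-test after Benjamini-Hochberg adjustment and at an adjusted p under 0.01, where Pm20d1 alone was called, and it was 0 in limma with the slide column as a block, where 3 members were higher at an unadjusted p under 0.05. The lower count was 0 by the methods' t-test after adjustment (2 at an unadjusted p under 0.05), at an adjusted p under 0.01 (2), with the slide column as a block (1) and with the replicate number as a block (2). In that replicate block, Ckb stayed at -0.67 with an adjusted p of 0.0610; the higher count was the same as without pairing, and no other member's call changed. The slide-column block rests on a single Zip13-KO array beside the 3 WT arrays, and in it 0 of all 15302 genes were called higher and 7 lower, with 4803 at an unadjusted p under 0.05.

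Leaving out each array in turn gave 1 to 2 members higher (1 without Zip13-KO replicate 1) and 0 to 1 lower, 7 to 17 related genes higher and 2 to 5 lower. Gamt, 0.07 with all arrays, ranged from -0.0263 without WT replicate 1 to 0.246 without WT replicate 2, and was -0.00486 without WT replicate 3. Scaled to the 75th percentile, the Zip13-KO minus WT difference of the summed markers was 0.605 for endothelium (0.548 with quantile normalization). It was -0.153 for neutrophils (-0.211) and 0.196 for Schwann cells and nerve (0.0951). For adipocytes it was 0.521 (0.379) and for skeletal muscle 0.728 (0.668). For macrophages it was -0.991 (-1.10) and for stromal progenitors and fibroblasts -0.501 (-0.593). The median of all genes moved by less than 0.1. Of the 9 tested neutrophil markers 4 were called lower, beside 8.38% of all genes. The brightest of the 9, Csf3r, weighs most in their sum and was not called (0.005, limma adjusted p = 0.964). Calls over all genes were 975 higher and 720 lower by the adjusted t-test and 707 and 505 at an adjusted p under 0.01, 969 and 778 without Zip13-KO replicate 1, and 1025 and 787 without Zip13-KO replicate 2, beside 1576 and 1282. Few arrays and dim spots limit what can be seen of Ckmt2, Ryr2 and, in WT, Pm20d1.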
